A study of Nematostella vectensis and Apis mellifera and Strongylocentrotus purpuratus with 22 samples.

Results

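The methylomes of sperm and oocytes of the purple sea urchin (Strongylocentrotus purpuratus) were compared CpG by CpG and in windows along the genome. These gametes are 2 of the 22 samples of a survey of gametes and young embryos from 4 invertebrates by whole-genome bisulfite sequencing (WGBS), and the sea urchin accounts for 4 samples, which also include cleavage embryos and blastulae. Bisulfite turns cytosines without methylation into bases that the sequencer reports as T, whereas methylated ones stay C, and the methylation level of a CpG is the fraction of its reads that carry methylation. Compared were all CpGs with at least 5 reads in both gametes, and all 1000-bp windows that held at least 3 of them. The sperm and oocytes came from wild-type sea urchins kept in a laboratory in California, and no treatment is named. Sperm had been centrifuged at low speed to remove somatic cells, and eggs had been dejellied and washed. No transgene, deletion or agent is named for either group, and ages and the number of animals are not given in the sources used here. Each gamete has 1 set of counts, in which 2 replicates were pooled by the authors, so that the deposited counts give no spread between replicates or animals. Differences between sperm and oocytes therefore cannot be told apart from differences between the animals that gave them, their genotypes included. Methylation calls hold no markers by which the labelled cell type could be checked.

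CpG methylation is written by DNA methyltransferases and is copied to daughter strands at replication. In many invertebrates the genome is a mosaic, in which methylated stretches, often along the bodies of genes, alternate with stretches that carry almost no methylation. Sperm and egg each bring their own methylation pattern to the zygote, and the embryo starts from both. Cleavage embryos and blastulae, the stages that follow fertilization, are separate samples, and they are used below to sort windows without the counts of either gamete. Their levels are still not independent of the gametes, from which the embryo starts.

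Reads are counted at each CpG here and below, so that a read over several CpGs enters once for each of them. Summed in this way, sperm calls held 453262146 reads over 14107651 CpGs, with a median of 22 reads per CpG. Oocyte calls held 181029899 reads over 13540801 CpGs, with a median of 9. At least 5 reads were found at 80.8% of CpGs in sperm and 70.4% in oocytes. Both gametes passed this limit at 8491345 CpGs, where the median depth was 37 reads in sperm and 15 in oocytes. Of 830497 windows with a listed CpG, 542985 (65.4%) could be compared, with a median of 13 CpGs each. Sperm was thus the more deeply sequenced gamete throughout. Some results are given below also with sperm reads thinned at random to the total of oocytes. These are the mean difference, shares of CpGs above 0.9, counts of CpGs and windows, and the named windows. The density gap and the mean difference in windows above 0.8 in sperm are given so too. Other results are given with all reads only, and can move with depth.

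Over the shared CpGs sperm had a mean methylation level of 0.261 and oocytes had 0.241, so that sperm was higher by 0.0197 (95% binomial interval 0.0196 to 0.0197, which covers counting error only). This small difference of means was not a small difference everywhere. In sperm 66.8% of CpGs lay at or below 0.1, 17.0% lay above 0.9 and 16.2% lay between, while in oocytes the shares were 65.7%, 9.62% and 24.7%. The gametes therefore held nearly the same share of CpGs without methylation, and differed in how many CpGs were close to full methylation. Of the 1440191 CpGs above 0.9 in sperm, 41.4% were above 0.9 in oocytes, 57.8% lay between the bounds and 0.790% were at or below 0.1. Of the CpGs at or below 0.1 in sperm, 94.6% were at or below 0.1 in oocytes as well.

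Choosing CpGs by their sperm level fixes part of any drop in oocytes, and few reads spread levels away from the ends of the scale. Both points were addressed with the counts of the cleavage embryos and with thinned reads. At the 1325967 shared CpGs above 0.9 in cleavage embryos, the mean level of sperm was 0.916 and that of oocytes 0.858, and 76.8% of them were above 0.9 in sperm against 46.0% in oocytes. After sperm was thinned to medians of 17 reads in both gametes, 72.0% of such CpGs were above 0.9 in sperm and 46.0% in oocytes. Over all shared CpGs, thinning left 16.2% above 0.9 in sperm and 9.60% in oocytes, at medians of 17 and 16 reads. Fewer CpGs close to full methylation were thus found in oocytes at matched depth too.

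Single CpGs were tested by Fisher's exact test (2-sided) on reads with and without methylation, with Benjamini-Hochberg adjustment over all shared CpGs, and a CpG was counted where the adjusted p was under 0.05 and the levels lay at least 0.2 apart. The test compares 2 sets of counts, and not the conditions. It counted 214587 sperm-higher CpGs (2.53% of those tested) and 100144 oocyte-higher CpGs (1.18%). Without the test, the level was higher by 0.2 or more in sperm at 684869 CpGs (8.07%) and in oocytes at 339975 CpGs (4.004%), and a difference of 0.5 or more was seen at 141324 (1.66%) and 87720 (1.03%). With thinned reads, 92013 and 45966 CpGs were counted, so that the number counted fell by more than 1.5 times with depth while sperm-higher CpGs stayed the larger group.

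In windows, sperm had a mean level of 0.341 and oocytes had 0.313. Sperm minus oocyte had a mean of 0.0283 and a median of 0.00234, and its 5th and 95th percentiles were -0.102 and 0.240. Differences stayed within 0.05 in 66.0% of windows. The distribution was skewed towards sperm, with the upper tail heavier than the lower one.

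**Figure D1:**
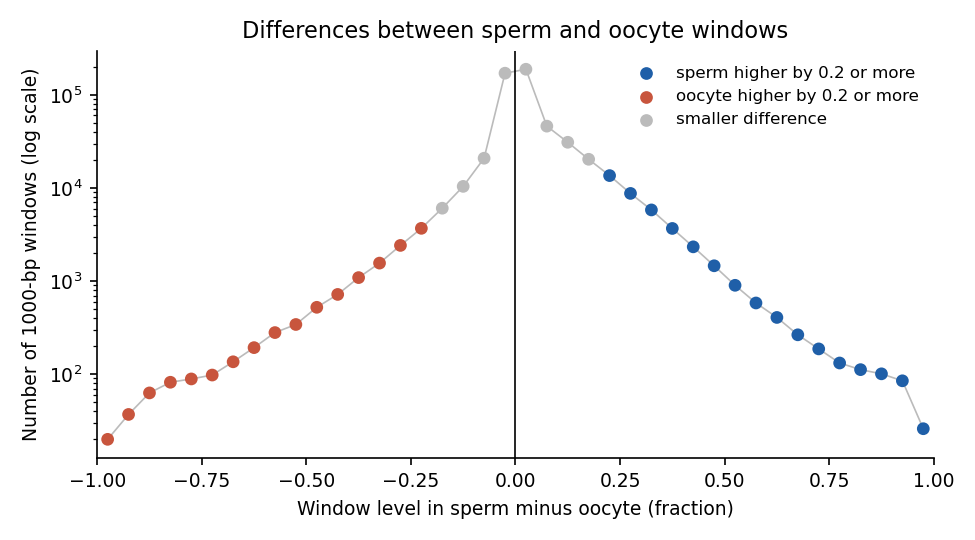
The number of 1000-bp windows (log scale) is plotted against the window level in sperm minus that in oocytes, in steps of 0.05, for the 542985 compared windows. Blue points, where sperm was higher by 0.2 or more, stand above red points, where oocytes were higher by as much, at the same distance from 0, while 66.0% of windows lie within 0.05 of it.

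By Fisher's exact test on the summed reads of a window, 132703 windows (24.4%) had an adjusted p below 0.05. Of these, windows whose mean levels lay at least 0.2 apart were counted, which gave 45150 windows (8.32% of those tested), of which 35480 were sperm-higher (6.53%) and 9670 oocyte-higher (1.78%). Reads over neighbouring CpGs of a molecule are not independent, and when the test used the reads of 1 CpG per 200 bp, 23360 and 5831 windows were counted. Thinned reads gave 31377 and 8063. Sperm-higher windows were spread over 4476 scaffolds and oocyte-higher windows over 3005.

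The windows counted in the 2 directions were not mirror images of each other. In sperm-higher windows the mean level of sperm was 0.788 and that of oocytes 0.467, and sperm was above 0.8 in 64.4% of them, while oocytes were below 0.2 in 16.6%. Levels are averages over the pooled cells, and partial methylation of every molecule and full methylation of some cannot be told apart. Of the 35480 windows, 22308 went from above 0.8 in sperm to an intermediate level in oocytes. In oocyte-higher windows the mean level was 0.605 in oocytes and 0.254 in sperm, and sperm was below 0.2 in 50.7% of them, while oocytes were above 0.8 in 27.5%. Of the 9670, 4588 went from below 0.2 in sperm to an intermediate level in oocytes, 314 went from below 0.2 to above 0.8, and the others were intermediate in sperm. Differences of 0.5 or more made up 7.88% of the sperm-higher windows (2795) and 13.9% of the oocyte-higher windows (1347). A change from above 0.8 to below 0.2 was rare in both directions. It was seen in 538 windows with the high level in sperm and 314 with it in oocytes, or 1.52% and 3.25% of the windows counted.

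In sperm-higher windows 90.3% of compared CpGs had the higher level in sperm, against 35.2% of all shared CpGs, and in oocyte-higher windows 89.5% had it in oocytes, against 21.6%. The choice of windows by the mean of these same CpGs fixes much of this. Of the counted CpGs with a higher level in sperm, 50.8% lay in windows counted in the same direction and 49.2% in windows not counted. For counted CpGs with a higher level in oocytes, 34.8% lay in windows of the same direction and 64.3% in windows not counted.

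CpGs at opposite ends of the scale were examined apart. Of 5993551 CpGs with at least 10 reads in both gametes, 4298 were at or above 0.9 in sperm and at or below 0.1 in oocytes. The other way round were 4079. Of the first kind, 66.4% of the 4239 that lay in compared windows were inside sperm-higher windows, which made up 6.53% of all compared windows. The other CpGs of their windows differed by a median of 0.276 in the same direction. Of the second kind, 33.8% of 4031 were inside oocyte-higher windows, which made up 1.78% of all compared windows. The other CpGs of their windows differed by a median of -0.0218. Both kinds thus lay in windows of their own direction more often than compared windows at large, although each CpG also enters its window's mean. The other CpGs were shifted by less than 0.2 in that direction in 43.5% of cases for the first kind and 72.2% for the second. In cleavage embryos the mean level was 0.404 at the first kind and 0.725 at the second.

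The classes of windows were set against each other next. Of 311027 windows below 0.2 in sperm, 97.4% were below 0.2 in oocytes, 2.52% were intermediate and 0.101% were above 0.8. Of 139797 windows above 0.8 in sperm, 55.5% were above 0.8 in oocytes, 44.1% were intermediate and 0.385% were below 0.2. Of the 92161 windows intermediate in sperm, 75.5% were intermediate in oocytes, 14.3% were above 0.8 and 10.3% were below 0.2. Among classes set by sperm, windows above 0.8 thus left their class most often, but the choice of gamete fixes part of this. Of windows above 0.8 in oocytes, 77594 were above 0.8 in sperm, 13134 intermediate and 314 below 0.2. Of windows intermediate in oocytes, 69549 were intermediate in sperm, 61665 above 0.8 and 7831 below 0.2. With classes set by oocytes, intermediate windows thus left their class most often. Most windows below 0.2 in sperm were shared by the gametes, although the few that were not made up 50.7% of the oocyte-higher windows.

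By sperm level, the mean difference rose, though not at every step, from -0.00858 in windows below 0.1 to 0.123 in windows at or above 0.9. The share counted as sperm-higher had another shape. It peaked at 20.05% between 0.4 and 0.5, was 12.3% between 0.6 and 0.7, and was 19.1% at 0.9 and above. Part of the rise in the mean difference is fixed by the choice of classes, since a window chosen for a high level in sperm tends to lie lower elsewhere. A window below 0.2 in sperm cannot be counted as sperm-higher. In windows above 0.8 in sperm the mean difference was 0.103. In windows above 0.8 in oocytes it was -0.000144, and the direction was thus lost when oocytes set the classes.

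Classes set by cleavage embryos use the counts of neither gamete. In windows below 0.1 in cleavage embryos the mean difference was 0.000272, and in the 269887 windows below 0.05 the mean level of sperm was 0.0110 and that of oocytes 0.0114. The difference then rose through 0.0196 between 0.1 and 0.2 and 0.0453 between 0.4 and 0.5 to 0.0746 between 0.7 and 0.8, and was 0.0651 at 0.9 and above. In all 137003 windows above 0.8 in cleavage embryos it was 0.0688. Over CpGs with at least 5 reads in the gametes and cleavage embryos, whatever the blastula depth, it was 0.0677. Over CpGs shared by the gametes and blastulae, it was 0.0715 in windows above 0.8 in blastulae, an alternative chosen after seeing the data. Mean levels were thus lower in oocytes in every class at or above 0.1 in cleavage embryos, and about equal below.

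**Figure D2:**
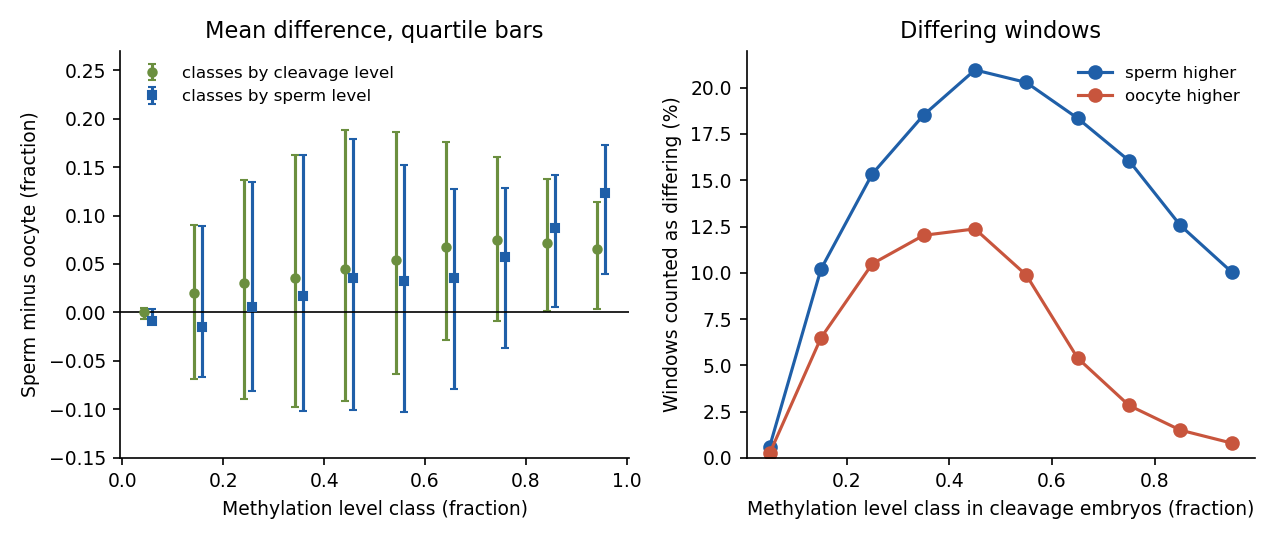
Left, the mean of sperm minus oocyte (fraction) in steps of 0.1 of the methylation level, with bars from the lower to the upper quartile of windows, for classes by cleavage level (green circles) and by sperm level (blue squares). Right, the share of windows (%) counted as differing by cleavage level class, where sperm-higher windows (blue) peak at 20.96% and oocyte-higher windows (red) at 12.4% between 0.4 and 0.5, and fall to 10.04% and 0.798% at 0.9 and above.

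The share of windows counted had another shape than the mean difference. Windows between 0.4 and 0.5 in cleavage embryos were counted most often, as sperm-higher in 20.96% and as oocyte-higher in 12.4% of cases. At 0.9 and above, 10.04% were counted as sperm-higher and 0.798% as oocyte-higher. Windows of intermediate level in the embryo therefore differed in both directions, and windows at 0.9 and above mostly in the direction of sperm. The quartiles show the same, since they reached from -0.0914 to 0.188 between 0.4 and 0.5 and from 0.00332 to 0.114 at 0.9 and above.

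CpG density, taken as the number of CpGs per window listed in any of the 4 sea urchin samples, ordered the differences strongly. In windows of 6 to 10 CpGs sperm had a mean level of 0.670 and oocytes of 0.601, which is 0.0689 apart, and 15.02% of them were counted as sperm-higher. In windows of 31 to 40 CpGs the levels were 0.146 and 0.137, or 0.00833 apart, and 2.77% were counted as sperm-higher. The class of 3 to 5 CpGs had the largest difference, 0.0736, and 17.2% of its windows were counted as sperm-higher. Oocyte-higher windows depended on density much less, with shares between 1.35% and 2.79% in all 7 density classes. The median density was 14 CpGs in sperm-higher windows and 19 in oocyte-higher windows, against 21 in all compared windows.

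Most CpG-dense windows carry no methylation, and this alone lowers a difference. Density was therefore examined within the 137003 windows above 0.8 in cleavage embryos. There the level in sperm was nearly flat, with 0.871 at 3 to 5 CpGs, 0.870 at 16 to 20 and 0.878 above 40. The level in oocytes rose from 0.783 to 0.805 and 0.842 over the same classes. The difference accordingly narrowed from 0.0884 to 0.0362, and the share counted as sperm-higher fell from 19.2% to 3.95%. Oocytes thus differed from sperm most in those methylated windows that held few CpGs. Blastulae showed a rise as well, from 0.838 to 0.872, and lay between the gametes in each of the 7 classes.

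**Figure D3:**
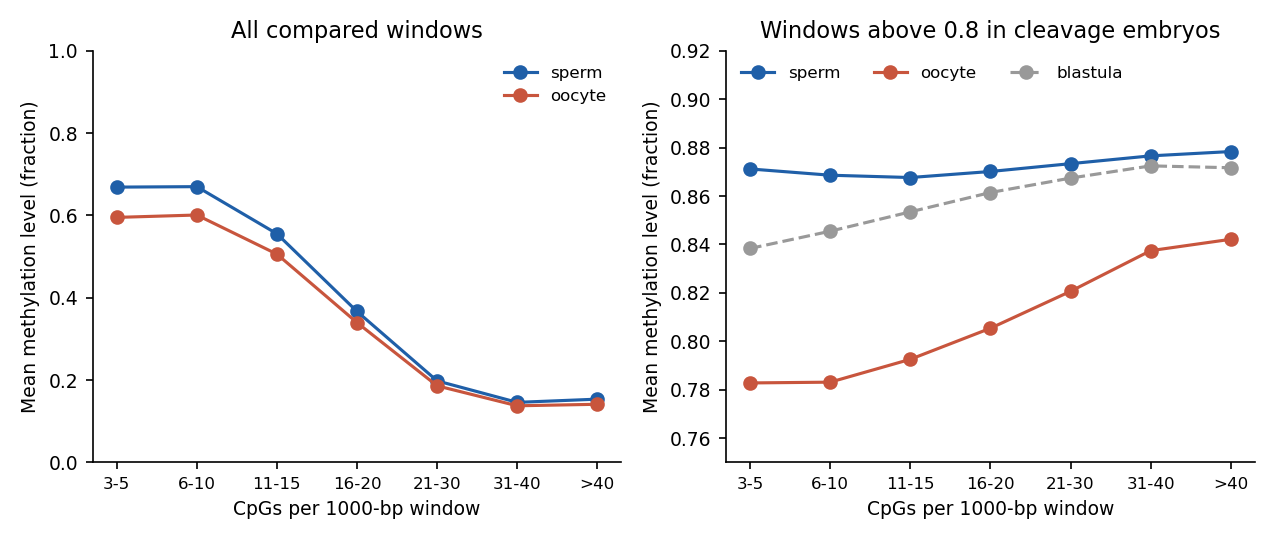
Mean methylation level (fraction) by the number of CpGs per 1000-bp window, in all compared windows (left) and in windows above 0.8 in cleavage embryos (right, where the axis starts at 0.75). Sperm (blue) and oocytes (red) fall together with density on the left, while on the right sperm stays between 0.868 and 0.878 and oocytes rise from 0.783 to 0.842, with blastulae (grey) in between.

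Depth moved with density in sperm, where the median depth of these methylated windows fell from 49.0 reads at 3 to 5 CpGs to 31.9 above 40, but not in oocytes, where it lay between 14.4 and 15.1. When windows were split into 3 equal sets by oocyte depth, the order was kept in each, with differences of 0.0793, 0.0604 and 0.0367 for up to 10, 11 to 30 and over 30 CpGs in the shallowest set, and 0.0944, 0.0690 and 0.0430 in the deepest. With 5 sets by oocyte depth, the difference ranged from 0.0620 to 0.0735. When density was taken from the compared CpGs alone, the gap between windows of up to 10 and of over 30 CpGs was 0.0357, in place of 0.0599 with all listed CpGs, over all compared windows.

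The surroundings of a methylated window mattered less clearly. Of windows above 0.8 in cleavage embryos, the 47696 with methylated windows on both sides had a mean difference of 0.0702, and 10.2% of them were counted as sperm-higher. The 2031 at an edge, with a methylated window on 1 side and an unmethylated window on the other, had a difference of 0.0379 and 5.22% counted. In the 68 windows with unmethylated windows on both sides the difference was 0.0894. Differences in sperm level were small among them, from 0.864 to 0.879, so that the oocyte level, 0.808 inside methylated stretches and 0.834 at edges, made up most of the gap.

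Along scaffolds, the 35480 sperm-higher windows formed 27264 runs of adjacent windows, the longest of 14, and the 9670 oocyte-higher windows formed 7766 runs, the longest of 18. Most runs were single windows, which held 61.4% of the sperm-higher and 69.2% of the oocyte-higher windows. After a sperm-higher window the next compared window was sperm-higher in 32.3% of cases, against 6.02% of all 422232 adjacent pairs. After an oocyte-higher window it was oocyte-higher in 30.8% of cases, against 1.46%. The next window was counted in the opposite direction in 1.05% of cases after a sperm-higher and in 4.19% after an oocyte-higher window. Differing windows thus lay next to windows of their own direction more often than compared windows at large. That base mixes windows of all levels. By cleavage level, 1.05% of windows below 0.2 were counted as sperm-higher, 17.5% of intermediate ones and 11.5% of those above 0.8. As oocyte-higher, the shares were 0.535%, 6.61% and 1.20%. The shares after a counted window were not split by level.

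In both directions, runs of 5 or more had larger differences than single windows. Sperm-higher windows differed by a mean of 0.311 in single windows, 0.333 in runs of 3 and 0.375 in the 280 runs of 5 or more. Oocyte-higher windows differed by -0.330 in single windows, -0.382 in runs of 3 and -0.457 in the 107 runs of 5 or more. Runs of 10 or more were rare, with 17 of sperm-higher windows, which differed by 0.467, and 16 of oocyte-higher windows, which differed by -0.443. Although sperm-higher windows were the larger group, the longest runs were about as many in both directions, and held 0.521% of the sperm-higher but 2.04% of the oocyte-higher windows.

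The likeness of differences faded slowly with distance. The Pearson coefficient between the differences of windows 1000 bp apart was 0.424 over 422232 pairs. It was 0.323 at 2000 bp, 0.196 at 10000 bp, 0.0763 at 50000 bp and 0.0362 at 100000 bp. Among windows above 0.8 in cleavage embryos it was 0.326 at 1000 bp and 0.0417 at 100000 bp. These coefficients are across windows, which share libraries and often reads and are not independent, and they serve as a description only.

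**Figure D4:**
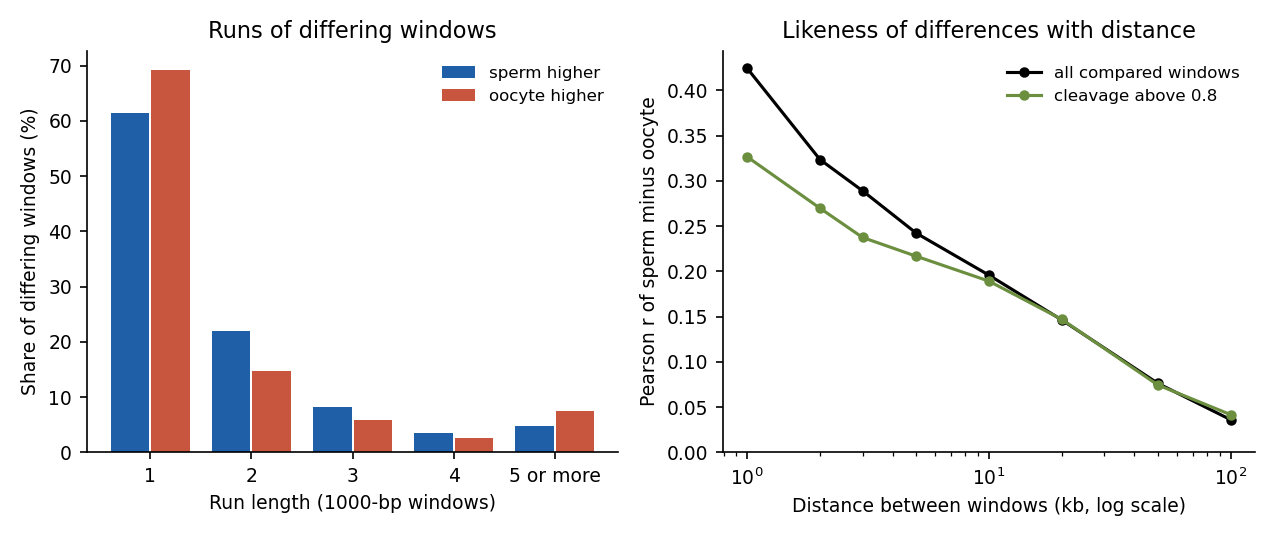
Left, the share of counted windows (%) that lie in runs of 1, 2, 3, 4 and 5 or more adjacent windows, for sperm-higher (blue) and oocyte-higher (red) windows, with 61.4% and 69.2% in single windows. Right, the Pearson coefficient between the differences of windows at a given distance (log scale), which falls from 0.424 at 1000 bp to 0.0362 at 100000 bp over all compared windows (black) and from 0.326 to 0.0417 in windows above 0.8 in cleavage embryos (green).

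Windows with the largest differences were named by a fixed rule, among counted windows with at least 10 compared CpGs, and their coordinates are on assembly Spur_3.1. Their values were what chose them, and they serve as examples. The levels cover only part of the CpGs listed in each window. Compared were 12 of 63 on Scaffold182, 11 of 40 on Scaffold273 and 13 of 32 on Scaffold3796. For the oocyte-higher windows it was 10 of 44 on Scaffold230, 10 of 18 on Scaffold4524 and 13 of 16 on Scaffold6615. In this order, oocyte depth per compared CpG had a median of 6.5, 6, 11, 5, 9 and 7, where 5 was the minimum allowed. Sperm depth had 6.5, 36, 8, 41, 46 and 31. In Scaffold182:197001-198000 the 12 CpGs had a level of 0.974 in sperm against 0 in oocytes, with 76 of 78 reads methylated in sperm and 0 of 82 in oocytes, which allows a fraction of up to 0.0366 (Fisher's exact test, adjusted p = 4.99e-42). Cleavage embryos had 0.584 and blastulae 0.608 there, between the gametes. The next window was counted in the same direction, with 0.885 in sperm and 0.0113 in oocytes.

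In Scaffold273:447001-448000 the 11 CpGs had a level of 0.974 in sperm against 0 in oocytes (exact test, adjusted p = 4.36e-68). Summed over CpGs, 386 of 396 and 0 of 67 reads were methylated. The 0 of 67 would allow a fraction of up to 0.0448, again only if the reads were independent. The embryos again lay between, with 0.367 at cleavage and 0.585 in blastulae. In Scaffold3796:4001-5000 the 13 CpGs had a level of 0.972 in sperm against 0.00481 in oocytes (exact test, adjusted p = 4.95e-61), and cleavage embryos had 0, as oocytes nearly did.

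The window with the largest difference in favour of oocytes was Scaffold230:556001-557000, where 10 CpGs had 0.00244 in sperm against 1 in oocytes (exact test, adjusted p = 1.94e-66). The summed reads with methylation were 1 of 402 in sperm and 53 of 53 in oocytes. Cleavage embryos had 0.0153 and blastulae 0.724, so that the embryonic stages stood at different ends. Both neighbouring windows were counted as oocyte-higher too, with 0.00962 in sperm and 0.851 in oocytes before, and 0.101 and 0.817 after.

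Scaffold4524:40001-41000 had 0.00389 in sperm against 0.988 in oocytes, also at 10 CpGs (exact test, adjusted p = 4.94e-91), with 0.225 at cleavage and 0.178 in blastulae. Scaffold6615:1001-2000 had 0.0192 in sperm against 1 in oocytes at 13 CpGs (exact test, adjusted p = 4.04e-85), with 0.904 at cleavage. In these 6 windows the embryos followed neither gamete as a rule, and stood near oocytes, near sperm or in between from window to window.

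The longest sperm-higher run covered Scaffold82:626001-640000, with 14 windows and 138 CpGs, and mean CpG levels of 0.880 in sperm and 0.461 in oocytes, beside 0.665 at cleavage and 0.417 in blastulae. Its windows lay between 0.734 and 0.940 in sperm and between 0.264 and 0.639 in oocytes. Sperm was higher at 132 of its 138 CpGs. Every window of a run was counted for a difference of at least 0.2 in 1 direction. This choice fixes much of the gap between the gametes in all runs named here. Among all counted windows, 90.3% of CpGs in sperm-higher and 89.5% in oocyte-higher windows already shared the direction. The difference did not end with the run, as 9 of the 12 windows before it and 6 of the 7 compared windows among the 12 after it were also sperm-higher.

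Scaffold219:544001-557000 was the next longest, with 13 windows and 188 CpGs, 0.865 in sperm and 0.489 in oocytes, beside 0.682 at cleavage and 0.812 in blastulae. Sperm was higher at 174 of its CpGs. The window before the run had 0.861 in sperm and 0.761 in oocytes, and the window after it 0.715 and 0.743, and neither was counted. Farther out, 4 of the 12 windows before the run and 8 of the 12 after it were sperm-higher. Blastulae thus stood near oocytes in the run on Scaffold82 and near sperm in that on Scaffold219.

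The longest oocyte-higher run covered Scaffold707:278001-296000, with 18 windows and 361 CpGs, at a median depth of 85 reads in sperm and 29 in oocytes. The mean CpG level was 0.0562 in sperm and 0.597 in oocytes, beside 0.534 at cleavage and 0.262 in blastulae, and oocytes were higher at 360 of the 361 CpGs. Before the run, 10 of 10 compared windows among 12 were oocyte-higher as well, and after it 0 of 7 were. The next longest, Scaffold2:445001-460000, had 15 windows and 401 CpGs, with 0.00797 in sperm and 0.432 in oocytes, and oocytes were higher at 396 of the CpGs. Cleavage embryos had 0.562 over 389 of these CpGs, and blastulae had 0.0132 over the 150 that passed the minimum of reads there. In both runs oocytes were partly methylated along their whole length where sperm was close to unmethylated, and cleavage embryos stood near the oocytes.

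**Figure D5:**
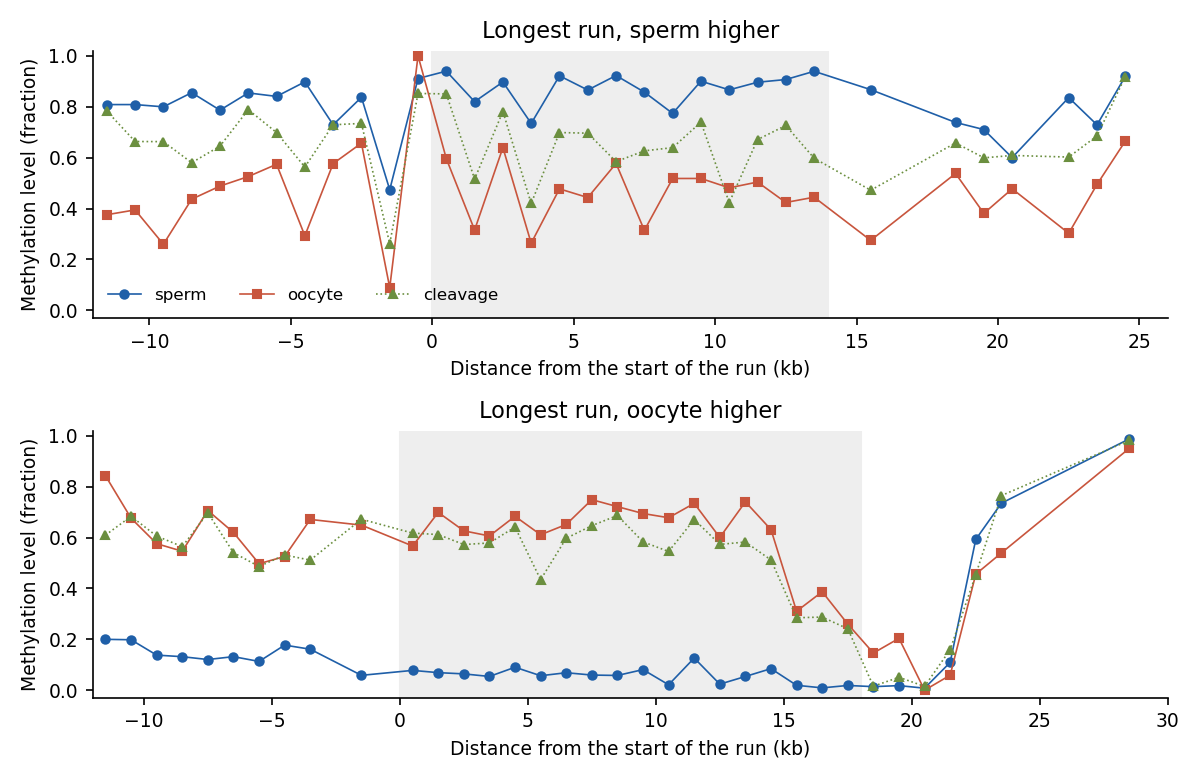
Methylation level (fraction) of single windows against the distance from the start of the longest sperm-higher run (top) and the longest oocyte-higher run (bottom), with the runs shaded, for sperm (blue circles), oocytes (red squares) and cleavage embryos (green triangles). Sperm stays between 0.734 and 0.940 in the upper run and at or below 0.126 in the lower one, and the difference goes on outside the runs, except after the lower one.

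Over all counted windows that could be followed in the 4 samples, embryos mostly lay between the gametes. In 33781 sperm-higher windows the mean level of sperm was 0.787 and that of oocytes 0.471, while both embryonic stages had 0.680. Cleavage embryos were above the midpoint of the gametes, 0.629 on average, and nearer to sperm in 71.2% of these windows. In 8859 oocyte-higher windows the mean level of sperm was 0.255 and that of oocytes 0.597, with 0.498 at cleavage and 0.455 in blastulae, beside a midpoint of 0.426. There cleavage embryos were nearer to sperm in 31.1% and blastulae in 45.6% of windows. In both directions the embryos were thus more often nearer to the gamete with the higher level, and the share of oocyte-higher windows near sperm was larger in blastulae than in cleavage embryos. Windows chosen for a difference between the gametes tend to place a further sample in between by that choice alone, and no test was made of these positions.

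The direction was shared by most scaffolds. Of 812 scaffolds with at least 200 compared windows, 757 had the higher mean level in sperm, and the mean difference had a median of 0.0275. Of scaffolds chosen after their values were seen, Scaffold1379 had the highest mean difference, 0.163, with 35.2% of its 210 windows counted as sperm-higher, and Scaffold707 the lowest, -0.124, with 27.2% of its 202 windows counted as oocyte-higher. Scaffold7, a mosaic of methylated and unmethylated stretches, had CpG levels of 0.301 in sperm and 0.273 in oocytes. Of its 1122 windows, 101 were sperm-higher (9.002%) and 16 oocyte-higher (1.43%), against 6.53% and 1.78% of all compared windows. Scaffold636 was almost unmethylated in both, with 0.0344 in sperm and 0.0360 in oocytes. Of its 753 windows, 6 were sperm-higher (0.797%) and 2 oocyte-higher (0.266%). Its difference of -0.00160 turned to 0.00235 when reads were pooled over CpGs.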

How the data were processed

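Per the authors' methods, Trimmomatic trimmed the reads and Bismark aligned them to assembly Spur_3.1 and lambda DNA, before duplicates were removed and overlapping read pairs were clipped. SAMtools 0.1.19 is named in the submitters' processing notes. The deposited calls list, per CpG, methylated and unmethylated read counts, replicates pooled, and the methylation level as a fraction, which equals methylated over all reads and is not corrected for non-conversion. Fractions were recomputed here from the counts. Window levels are means over CpGs. Fisher's exact test (2-sided) was run per CpG and per window with Benjamini-Hochberg adjustment, in Python 3.11.15 (numba 0.67.0, numpy 2.4.6, scipy 1.17.1, pandas 2.3.3, matplotlib 3.10.9), and was tested on simulated data. The minimum difference of 0.2 and of 3 CpGs follow the DSS settings of the study, and DSS was not used here. Density counts CpGs listed in any of the 4 sea urchin samples. Thinning kept a random fraction of 0.417 of the sperm reads. Coordinates count from 1, with deposited starts taken to count from 0.

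Regions named were, among counted windows with at least 10 CpGs and a mean depth of at most 5 times the median, the 3 with the largest difference in each direction, the 2 longest runs in each direction, and Scaffold7 and Scaffold636. The comparison, classes and regions were chosen with earlier results of these data known. Genes and sequences were not used here, as no genome or annotation of Spur_3.1 was used. Intervals cover counting error only, and PCR copies of a molecule are not independent. Alternatives varied the minimum of reads and CpGs, depth, weighting of CpGs, window size, thresholds, reads tested, density, level classes and gaps in runs.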

Additional observations from a re-analysis of the deposited data

How the results depend on the processing

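The named windows kept their direction and their call in every alternative that gave a value, but with at least 10 reads only 1 of the 6, on Scaffold4524, had enough CpGs to be tested, and with thinned reads Scaffold182 gave no value. The mean difference over shared CpGs, 0.0197, was 0.0198 with at least 10 reads, 0.0203 with thinned reads, 0.0204 with at least 1 read and 0.0366 with reads pooled over CpGs. Counts of CpGs, sperm-higher and oocyte-higher, moved to 92013 and 45966 with thinned reads and to 131604 and 64574 at an adjusted p below 0.01. Counts of windows moved to 53357 and 15702 with 500-bp windows, 20229 and 5584 with 2000-bp windows, 15697 and 4967 with a minimum difference of 0.3, and 23360 and 5831 with the reads of 1 CpG per 200 bp. Sperm-higher CpGs and windows were the larger group in every one of these settings.

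The mean difference in windows of up to 10 CpGs minus that in windows of over 30, 0.0599, was 0.0676 with at least 10 reads, 0.0636 with thinned reads, 0.0605 without CpGs above 5 times the median depth, 0.0607 with pooled reads, 0.0620 with at least 5 CpGs, 0.0525 with 500-bp windows, 0.0537 with 2000-bp windows and 0.0357 with density from compared CpGs. The mean difference in windows above 0.8 in sperm, 0.103, was 0.101 with at least 10 reads, 0.106 with thinned reads, 0.104 with pooled reads, 0.0972 with at least 5 CpGs, 0.106 with 500-bp and 0.0981 with 2000-bp windows. With classes by cleavage level it was 0.0677, by blastula level, chosen after seeing the data, 0.0715, and by oocyte level -0.000144, as the classes were by construction set on other counts.

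The share of counted windows in runs of 2 or more, 36.9%, was 36.0% with at least 10 reads, 34.9% with at least 5 CpGs, 34.7% with 2000-bp windows, 27.6% with a minimum difference of 0.3, 34.9% with 1 CpG per 200 bp and 48.2% when 1 window not counted was allowed inside a run. On Scaffold636 the difference was 0.00235 with pooled reads. The cause of the other shifts was not tested. No paired analysis was made, as the labels pair no sperm replicate with an oocyte replicate. The deposited counts pool the replicates of each gamete, so that no replicate could be left out. Depth limits the oocytes, where the median was 15 reads per shared CpG, and fewer single CpGs were counted when sperm reads were thinned.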
